A study of Mus musculus with 2 samples.

Results

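TBX5 sites around 4 regulators of cardiac energy metabolism were examined: the coactivator genes Ppargc1a and Ppargc1b and the nuclear receptor genes Esrrg and Ppara. A site counted for a locus if its summit, the base of highest TBX5 signal, lay inside a fixed mm9 window: chromosome 5 from 51.78 to 52.05 Mb for Ppargc1a, chromosome 18 from 61.42 to 61.60 Mb for Ppargc1b, chromosome 1 from 189.38 to 190.10 Mb for Esrrg and chromosome 15 from 85.50 to 85.72 Mb for Ppara. These windows held 30 of the 8849 peaks in the list, 8 at Ppargc1a, 9 at Ppargc1b, 9 at Esrrg and 4 at Ppara. The windows were chosen by the positions of peaks in this same list, so the numbers and strengths of peaks below are a description and no test was made. No mm9 annotation was used here, so a peak is named by its window and was not placed inside or outside the gene, and a window can reach into neighbouring genes.

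The list came from chromatin immunoprecipitation and sequencing (ChIP-seq) on heart ventricles of wild-type C57BL/6 mice aged 15 weeks, fixed with 2% formaldehyde and otherwise untreated. TBX5 is a T-box factor that heart development depends on. Its antibody was set beside a rabbit IgG, which shows unspecific pull-down. Both came from the same kind of tissue, and the series' title places the work in conduction and remodelling of the adult heart. The design text gives 2 biological replicates per antibody, but the peaks came as 1 merged list. Values of single replicates and of the IgG sample were not analysed here, so no replicate spread stands behind any value. Whole ventricle holds several cell types, and a peak does not say in which of them TBX5 was bound. A peak list holds no expression values, so the tissue label was not checked against marker genes.

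PGC-1α and PGC-1β, the products of Ppargc1a and Ppargc1b, bind no DNA themselves. They are recruited by nuclear receptors and other transcription factors and raise the expression of genes of mitochondrial biogenesis, oxidative phosphorylation and fatty acid oxidation. Estrogen-related receptor gamma (Esrrg) is an orphan nuclear receptor that acts with these coactivators on mitochondrial and contractile genes of the heart. Peroxisome proliferator-activated receptor alpha (Ppara) is a fatty acid sensor that pairs with a retinoid X receptor and drives genes of fatty acid uptake and oxidation.

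Promoter sequences of these genes were taken from RefSeq (GRCm38.p6, 250 bases before to 50 bases after a transcript start). Of these, 3 are shown to let the T-box core be read in place. The other Esrrg promoters were searched but not printed. Ppargc1a had 1 such promoter, Esrrg 4 and Ppara 1, and no Ppargc1b promoter was used here. Capitals mark AGGTGT, the core that T-box proteins bind, on either strand. Of the 6 promoters, only the first of Esrrg held it, 1 time, on the strand of the gene and beginning 108 bases before the transcript start. AGGTGT was present in 13.7% of all 32851 promoters of this length.
Ppargc1a, chr5:51567676-51567975, minus strand: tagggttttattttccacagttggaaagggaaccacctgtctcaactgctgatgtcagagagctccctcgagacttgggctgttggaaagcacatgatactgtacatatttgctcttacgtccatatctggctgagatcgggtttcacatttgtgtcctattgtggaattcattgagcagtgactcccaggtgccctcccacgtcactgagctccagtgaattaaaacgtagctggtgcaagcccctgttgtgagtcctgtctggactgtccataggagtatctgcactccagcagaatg
Esrrg, first promoter, chr1:187608756-187609055, plus strand: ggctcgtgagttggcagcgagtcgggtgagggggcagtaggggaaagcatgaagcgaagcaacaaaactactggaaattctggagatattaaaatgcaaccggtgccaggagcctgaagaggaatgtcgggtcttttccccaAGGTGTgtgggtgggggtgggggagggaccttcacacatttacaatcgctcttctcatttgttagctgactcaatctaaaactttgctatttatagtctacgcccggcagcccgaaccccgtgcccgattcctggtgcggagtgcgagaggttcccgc
Ppara, chr15:85735526-85735825, plus strand: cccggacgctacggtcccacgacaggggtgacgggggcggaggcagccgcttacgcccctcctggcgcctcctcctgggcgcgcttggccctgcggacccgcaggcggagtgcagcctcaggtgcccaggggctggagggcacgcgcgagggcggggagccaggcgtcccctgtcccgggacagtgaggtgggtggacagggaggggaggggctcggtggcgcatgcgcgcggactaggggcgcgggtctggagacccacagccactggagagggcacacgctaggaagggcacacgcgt

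These promoter positions are on GRCm38.p6 and cannot be set against the mm9 peak positions, so no peak was assigned to a promoter. A match is a description of letters and not a TBX5 site, and the lack of one says only that these letters are not in these 300 bases. The Ppara promoter was the richest in G and C, with 74.7% and 30 CpG pairs, against 48.7% and 5 CpG pairs for Ppargc1a and 54.0% and 15 for the first Esrrg promoter. The median promoter had 52.7% and 7. None of the 6 promoters held the nuclear receptor core AGGTCA (16.3% of all promoters), the estrogen-related receptor element TCAAGGTCA (0.423%), the GATA sequence AGATAA (11.2%), the MEF2 sequence searched (0.110%) or the cAMP response element TGACGTCA (1.79%), on either strand. The receptor core is part of the longer receptor element, so a match to the latter is also a match to the former.

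In a list of 30 other genes of cardiac energy metabolism, 24 had promoters in the table, 31 in all. Beside the 13.7% of all promoters, the T-box core was in 5 of these 31, at Cs (citrate synthase), Pparg (the adipocyte member of the PPAR family), Rxra (a retinoid X receptor, the partner of PPARα), Tfb2m (a mitochondrial transcription factor) and Ucp3 (a mitochondrial uncoupling protein). The nuclear receptor core AGGTCA was in 9 of the 31, beside 16.3% of all promoters. These belonged to 8 genes, among them Acadm (medium-chain acyl-CoA dehydrogenase), Cd36 (a fatty acid transporter) and Perm1 (a muscle regulator of PGC-1 target genes). GATA sequences were in 2 of the 31, beside 11.2% of all promoters. They were at Pdk4, a kinase that restrains glucose oxidation, and Pprc1, the third PGC-1 family member. No promoter of the list held the estrogen-related receptor element, the MEF2 sequence searched or the cAMP response element.

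Each peak is described by its fold and its fragments. The fold is the authors' value, the TBX5 signal at the summit over the local control level. The fragments are the whole number of TBX5 DNA fragments over the summit, solved from the deposited fold and −log10 p, and the control level is the number of control fragments per position that the peak caller used. The sources used here do not name that control. Intervals are exact 95% Poisson intervals and cover counting error only: no molecular identifiers are named, so copies of a molecule may be counted apart. Fold intervals hold the control level fixed. Over the whole list the median fold was 5.52, the median summit held 32 fragments and the median control level was 3.50.

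Ppargc1a had 8 peaks with a single strong one. This site, on chromosome 5 from 51938026 to 51938376, had 36 TBX5 fragments (25.2 to 49.8). The control level was 1.18 and the fold was 13.5 (9.58 to 18.5). It was the highest fold of all 30 peaks and stood above 93.5% of the list. That control level is the genome background, the lowest the caller allows. The summit lay to one side, at 71.8% of the 351 bp width.

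The other 7 Ppargc1a peaks had folds of 2.65 to 8.41. The second by score, from 51787748 to 51787942 at the lower end of the window, had 22 fragments (13.8 to 33.3) and a fold of 8.41, again at the genome background. The third, from 51831156 to 51831396, also had 22 fragments, but over a control level of 1.88, and its fold was 6.37. Equal fragments thus gave different folds. The fourth, from 51954952 to 51955084, had 17 fragments and a fold of 6.61, and the fifth, from 51990897 to 51991084, had 20 fragments over a control level of 3 and a fold of 4.18. Of these 2, the site with more fragments had the lower fold.

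The weakest Ppargc1a peak, from 51987091 to 51987217, had 29 fragments, more than 6 of the other 7, but over a control level of 8. Its fold was 2.65 (1.81 to 3.75) and its −log10 q was 1.86, near the lowest of the list (1.30). It and the fifth site were neighbours, with summits 3.88 kb apart. The site from 51843413 to 51843537 had 12 fragments at the genome background and a fold of 4.80, and the site from 51947930 to 51948090 had 15 over a control level of 2 and a fold of 4.27. These 2 had the fewest fragments of the locus. By −log10 q, 2 of the 8 Ppargc1a peaks scored above the median peak of the list.

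Ppargc1b had 9 peaks, and 8 of them formed a dense group on chromosome 18 from 61481686 to 61524023, 42.3 kb long. Peaks were joined into a group where their edges lay within 12500 bp. With a joining distance of 5 kb the largest Ppargc1b group had 3 peaks. The list held 1300 groups of 2 or more peaks, of which 10 had 8 or more. The rule that set the windows already named this group of 8, so nothing is read from its size. The strongest member, from 61492269 to 61492639, had 73 TBX5 fragments (57.2 to 91.8) over a control level of 4 and a fold of 11.7 (9.20 to 14.6). Only 1 other member of the group had a fold above 8, the first one, from 61481686 to 61482015, with 41 fragments (29.4 to 55.6), a control level of 2.65 and a fold of 9.11 (6.61 to 12.3).

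Between and beyond these sites lay 6 weaker ones with folds of 3.27 to 5.78. The site from 61491431 to 61491606 had 32 fragments, a control level of 7 and a fold of 3.27. Its summit was 0.817 kb from that of the strongest site, so the pair may be parts of 1 enriched region. Sites from 61504409 to 61504639 and from 61505953 to 61506263 had 33 and 38 fragments and folds of 4.49 and 3.86. Both lay over raised control levels, of 5 and 7. The site from 61510016 to 61510194 had the fewest fragments of the group, 21 (13.0 to 32.1), and a fold of 4.38. The last 2, from 61518295 to 61518441 and from 61523884 to 61524023, had 35 and 24 fragments and folds of 4.08 and 5.78. The second of them had fewer fragments and the higher fold, over control levels of 6 and 2.44. In this group 5 of 8 peaks were below the median fold of the list.

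The ninth Ppargc1b peak stood alone from 61576235 to 61576411, its summit 52.4 kb beyond the last of the group. With 26 fragments (17.0 to 38.1) over a control level of 1.25 it reached a fold of 9.53 (6.38 to 13.8), the second highest of the window. Its fragments were fewer than those of 6 of the 8 group members. In the RefSeq table (GRCm38.p6) the microRNA gene Mir378a lies inside Ppargc1b, and the 9 peaks were not placed relative to it.

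Esrrg had 9 peaks spread over the widest of the windows, 4 of them joined in pairs and none in a larger group. The strongest, on chromosome 1 from 189834827 to 189835059, had 47 TBX5 fragments (34.5 to 62.5) over a control level of 2 and a fold of 12.7 (9.39 to 16.7). Another 2 had nearly equal folds at far ends of the locus. The site from 189485170 to 189485351 had 28 fragments over a control level of 1.38 and a fold of 9.69 (6.58 to 13.8). The site from 189942099 to 189942411 had 37 fragments over 2.13 and a fold of 9.63 (6.88 to 13.2). They lay 349.7 kb before and 107.4 kb after the strongest summit, and their fold intervals overlapped almost wholly.

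The remaining 6 Esrrg peaks had folds of 3.31 to 6.61. Next by score came the site from 189476467 to 189476632, with 28 fragments over a control level of 3 and a fold of 5.76. The fifth, from 189522165 to 189522370, had 35 fragments over 5 and a fold of 4.76. Among the others, the site from 189827810 to 189827947 matched a Ppargc1a site exactly, the one from 51954952 to 51955084: both had 17 fragments at the genome background and a fold of 6.61, so they also share their −log10 p and q. For both, a second pair of fragments and control level also fitted the deposited values within the tolerance. Esrrg was the locus with the most peaks above the median fold of the list, 7 of 9. Its median fold was 6.24.

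Ppara had 4 peaks, the fewest, and the highest single score. The site on chromosome 15 from 85555335 to 85555589 had 119 TBX5 fragments (98.6 to 142) over a control level of 7.13 and a fold of 11.6 (9.67 to 13.9). By score it ranked 310 among the 8849 peaks. A second site, from 85564903 to 85565440, had 60 fragments (45.8 to 77.2) over a control level of 5 and a fold of 8.03 (6.17 to 10.3). It was the widest of the 30 peaks at 538 bp, with its summit at 20.6% of the width.

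The other 2 Ppara sites had low folds over high control levels. The site from 85565949 to 85566073 had 38 fragments (26.9 to 52.2) over a control level of 10 and a fold of 2.81. Its edge was 508 bp from that of the wide site, so the pair may be parts of 1 region. The site from 85508409 to 85508549 had 37 fragments (26.1 to 51.0), a control level of 9 and a fold of 3.01. It stood alone 47.0 kb before the strongest summit. Both held more fragments than the strongest Ppargc1a site, whose fold was over 4 times theirs, and the 3 fragment intervals overlapped. The Ppargc1a site was at the genome background, where the 759 peaks of the list had a median of 17 fragments. The 165 peaks at a level of 10 had a median of 44 and no fewer than 31. Fragment numbers at unlike control levels therefore do not compare the strength of these sites.

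**Figure D1:**
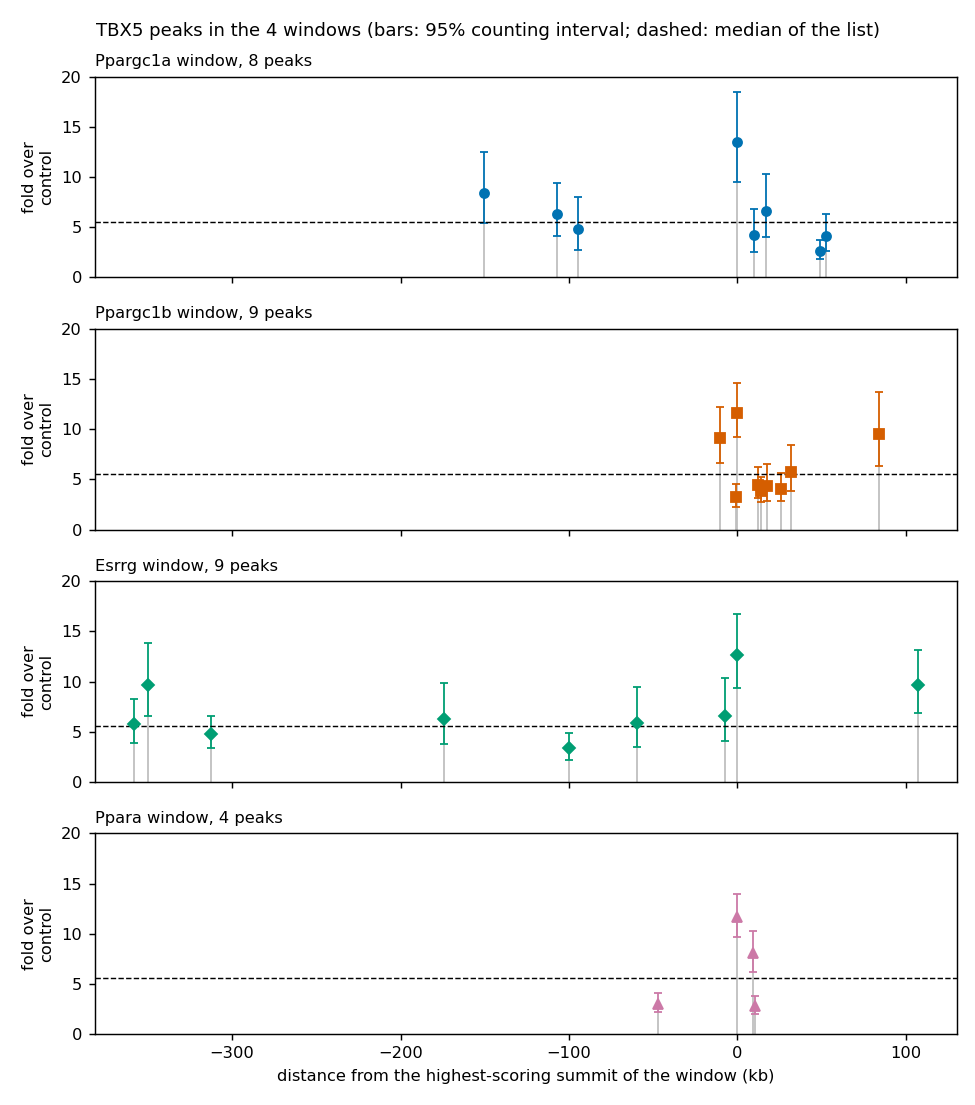
Fold of each TBX5 peak over its local control (vertical axis) against the distance of its summit from the highest-scoring summit of its window in kb (horizontal axis), 1 panel per window. Bars are 95% counting intervals with the control level fixed, and the dashed line is the median fold of the list, 5.52. Each window has a single peak above a fold of 10, and the Ppargc1b peaks crowd together while those of Esrrg reach from 358.4 kb before to 107.4 kb after the strongest one.

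The 4 loci had nearly the same top fold from very different numbers of fragments. Their highest folds were 13.5 at Ppargc1a, 12.7 at Esrrg, 11.7 at Ppargc1b and 11.6 at Ppara, with intervals that all overlapped. The fragments behind them ran the other way, 36, 47, 73 and 119. The interval of the Ppara site (98.6 to 142) lay above the other 3, and that of Ppargc1b (57.2 to 91.8) lay above that of Ppargc1a (25.2 to 49.8) but overlapped that of Esrrg (34.5 to 62.5). The control levels at these sites were 1.18, 2, 4 and 7.13. The 1 added to signal and control lowers the fold most at low control levels. These 4 folds are therefore closer together than ratios without it would be. Each window held exactly 1 peak at a fold of 10 or more, 4 of 30 in all (13.3%), against 13.7% of all peaks in the list. At a fold of 8 or more there were 2 at Ppargc1a, 3 at Ppargc1b, 3 at Esrrg and 2 at Ppara, 10 of 30 (33.3%), against 22.9% of all peaks. The rule chose windows on this list, so nothing is read from these shares.

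Median folds were 5.58 at Ppargc1a, 4.49 at Ppargc1b, 6.24 at Esrrg and 5.52 at Ppara, and the ranges overlapped. Among peaks at or above the median score of the list the medians were 10.9 (2 peaks), 9.53 (3), 9.63 (5) and 9.84 (2). Each rose by over 1.5 times, but a cut on score favours high folds, so a rise is built into it. Ppargc1a in place of Esrrg was then highest, on 2 to 5 peaks per locus, so the order of these medians is not settled. Median fragments of all peaks were 21, 33, 28 and 49 in the same order. Ppargc1a thus had the fewest fragments per peak, and its highest peak (36) was below all 4 Ppara peaks (37 to 119). The median control level was 1.53 at Ppargc1a, 2 at Esrrg, 4 at Ppargc1b and 8.06 at Ppara. All 4 Ppara peaks were at a level of 5 or more, as were 4 of 9 at Ppargc1b, 2 of 9 at Esrrg and 1 of 8 at Ppargc1a, against 35.7% of all peaks.

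At the other end, 4 of 8 Ppargc1a peaks and 3 of 9 Esrrg peaks lay at the genome background, and 0 of 9 at Ppargc1b and 0 of 4 at Ppara, against 8.58% of all peaks. The control level also sets how low a fold can be listed. The 759 peaks at the genome background had a lowest fold of 4.08 on at least 10 fragments, while the 165 peaks at a level of 10 went down to a fold of 2.31 but had at least 31 fragments. Weak Ppargc1a and Ppara peaks are therefore not held to the same limit. The part of the control level in the differences between loci was not tested.

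**Figure D2:**
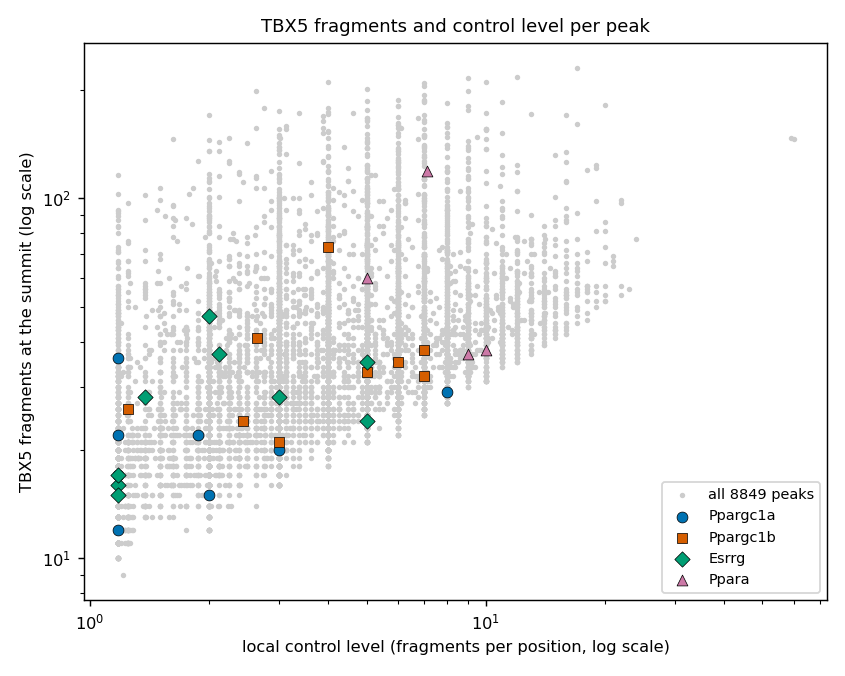
TBX5 fragments at the summit (vertical axis, log scale) against the local control level in fragments per position (horizontal axis, log scale) for all 8849 peaks in grey and the 30 peaks of the 4 windows in colour. Of the 8 Ppargc1a points, 4 sit at the left edge, the genome background of 1.18, and the Ppara points sit at levels of 5 to 10. Peaks over high control levels with few fragments are absent from the list.

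By −log10 q the medians were 5.23 at Ppargc1a, 6.93 at Ppargc1b, 8.35 at Esrrg and 14.8 at Ppara, beside 8.15 for the list. The Ppara median is the midpoint of 2 weak and 2 strong peaks (3.32, 4.19, 25.4 and 64.0) with none near it. Of all 30 peaks, 12 scored above the median score of the list, 2 at Ppargc1a, 3 at Ppargc1b, 5 at Esrrg and 2 at Ppara, against 49.4% of all peaks. In the whole list folds reached 44.9 and fragments 230, above every peak of the 4 windows.

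**Figure D3:**
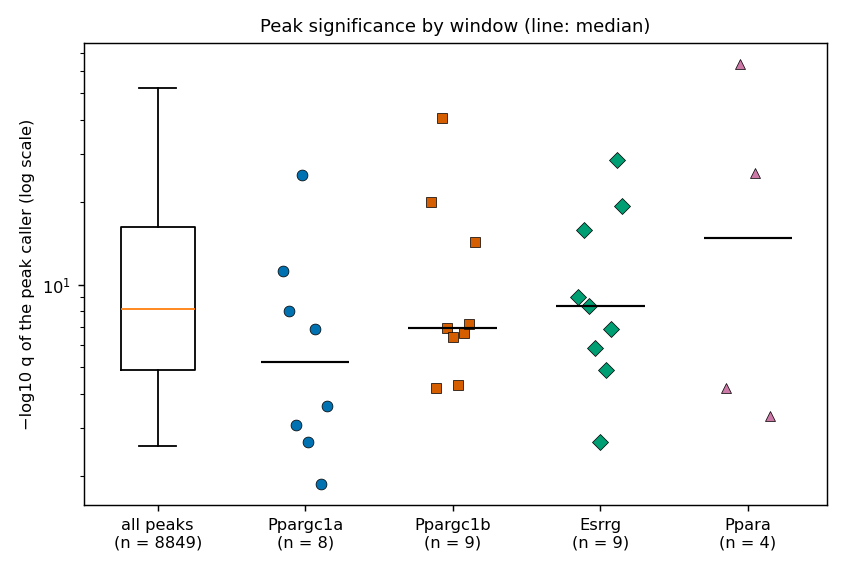
The peak caller's −log10 q (vertical axis, log scale) for each peak of the 4 windows, with the window medians as lines, beside the whole list as a box (quartiles 4.88 and 16.2, whiskers at the 5th and 95th percentiles). Only the strongest Ppara peak, at 64.0, lies above the upper whisker, and the 4 Ppara peaks fall into a low and a high pair.

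The peaks were packed most closely at Ppargc1b and most loosely at Esrrg. Ppargc1b had 5.00 peaks per 100 kb of its window (2.29 to 9.49), Ppargc1a 2.96 (1.28 to 5.84), Ppara 1.82 (0.495 to 4.66) and Esrrg 1.25 (0.572 to 2.37). The intervals overlapped, and the windows, from 180 kb to 720 kb wide, were set with the peaks known. The rates also count empty margins of the windows. The last Ppara peak lay 154.0 kb inside its upper border and the last Ppargc1a peak 59.0 kb, so the order of Ppargc1a and Ppara depends on the borders. The 4 chromosomes as wholes carried 0.329 to 0.418 peaks per 100 kb. Within this joining distance of 12500 bp of another peak were 8 of 9 peaks at Ppargc1b, 7 of 8 at Ppargc1a, 3 of 4 at Ppara and 4 of 9 at Esrrg, against 36.5% of all peaks. The largest group had 8 peaks at Ppargc1b, 3 at Ppargc1a, 3 at Ppara and 2 at Esrrg. With a joining distance of 5 kb it had 3 at Ppargc1b, 2 at Ppargc1a, 2 at Ppara and 1 at Esrrg.

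At each locus the highest-scoring site had other peaks within the joining distance of 12500 bp, which by definition score lower. At Ppargc1a it led a group of 3 from 51938026 to 51955084 (17.1 kb), whose other folds were 4.27 and 6.61. At Ppara it was the first of 3 peaks in 10.7 kb, from 85555335 to 85566073. At Esrrg it had a partner of fold 6.61, 7.08 kb away. The Ppargc1b group likewise held the strongest site of its window, 0.817 kb from its nearest neighbour. At the other loci the nearest edge was 6879 bp (Esrrg), 9313 bp (Ppara) and 9553 bp (Ppargc1a) away. A joining distance of 5 kb therefore left the strongest site there without a neighbour.

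The windows also differed in what lay around them. Before the first Ppargc1a peak no peak was listed for 3.53 Mb, while after the last one the next was 65.5 kb away, just past the border of the window, with 11 fragments and a fold of 4.44. Esrrg stood apart on both sides, with 1.04 Mb to the peak before it and 1.56 Mb to the one after, a stronger site of 80 fragments and a fold of 16.0. Around Ppara the gaps were 292.7 and 192.5 kb, and the peak after it had a fold of 7.92. Ppargc1b had 187.2 kb before it but only 30.8 kb after it, where a peak of 33 fragments and a fold of 5.39 lay 7.10 kb past the border. The last peaks inside the upper borders had folds of 4.18 at Ppargc1a, 9.63 at Esrrg, 2.81 at Ppara and 9.53 at Ppargc1b. At the lower borders the peaks inside had folds of 8.41, 5.76, 3.01 and 9.11 and those outside 4.80, 3.74, 5.16 and 5.29, for Ppargc1a, Esrrg, Ppara and Ppargc1b. The caller's peak numbers ran without a gap through each window.

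The strongest Ppara site was 255 bp wide for its 119 fragments. Of the 271 peaks in the list with 96 to 142 fragments, within 20% of it, 11 (4.06%) were as narrow or narrower, and the median width of the 271 was 417 bp. The strongest sites of the other loci were 233 bp wide at Esrrg, 371 bp at Ppargc1b and 351 bp at Ppargc1a. Among peaks of like fragments, 47.7%, 68.2% and 91.7% were as narrow. So for its fragments the Ppargc1a site was wide and the Ppara site narrow. The compared peaks were not matched on control level, which was 1.18 at the Ppargc1a site and 7.13 at the Ppara site. The part of the control level in these widths was not tested. The median widths per locus were 174.5 bp at Ppargc1a, 179 bp at Ppargc1b, 195 bp at Esrrg and 198 bp at Ppara, beside 202 bp for the list.

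**Figure D4:**
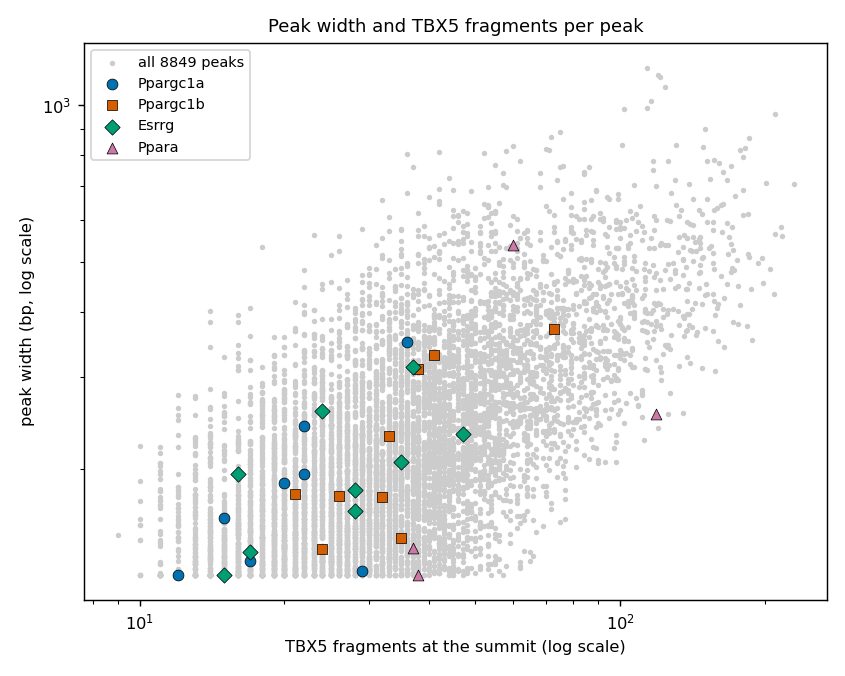
Peak width in bp (vertical axis, log scale) against TBX5 fragments at the summit (horizontal axis, log scale) for all 8849 peaks in grey and the 30 peaks of the 4 windows in colour. The Ppara peak of 119 fragments and 255 bp lies at the lower edge of the cloud, and the Ppara peak of 538 bp near its upper edge.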

How the data were processed

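ChIP-seq for TBX5 in adult mouse ventricle was analysed from 1 merged peak list. MACS2 2.1.1.20160309.0, Bowtie2 2.2.6.2, FastQC 0.10.0 and the build mm9 are listed, per the submitters' processing notes. How the caller was set, which control it had and how replicates were merged is not given in the sources used here. Values were taken as they stand. The deposited fold (a ratio over the local control), −log10 p, −log10 q and score are the authors' values. Positions are mm9, counted from 1.

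Fragments and control levels were solved from fold = (scaled TBX5 pileup + 1) / (control level + 1) and the upper Poisson tail. A scale of 0.787 and a genome background of 1.18 solved all 8849 peaks within 0.00016 of the deposited −log10 p (tolerance 0.005, and 0.002 on the level). For 102 peaks, 3 of them among the 30, a second solution existed and the closer was kept. The recovery was tested on simulated data. Library totals were not used here, so depth is given as fragments per peak. All peaks are counted, and each window's 5 highest-scoring peaks (all where it holds 8 or fewer) are given with position, fold, fragments and control level. The other Ppargc1b peaks and 1 other Esrrg peak were added after their values were seen. The windows, members and gene lists were chosen with earlier results of these data known. Placing peaks on genes, pathway genes and motifs within peaks needs an mm9 genome and was not done here. Promoters and the gene table are RefSeq's (GRCm38.p6). Scripts ran on Python 3.11.15 with scipy 1.17.1, matplotlib 3.10.9, pandas 2.3.3 and numpy 2.4.6.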

Additional observations from a re-analysis of the deposited data

How the results depend on the processing

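Of 59 alternatives, 49 stayed within 1.5 times the count, or within the 95% order-statistic interval of the median, and 10 moved. With 8 peaks at Ppargc1a and 4 at Ppara that interval is the full range, which the median of a subset cannot leave, so staying within it says nothing about stability at these 2 loci. At Ppara, with 4 peaks, even the full range falls short of 95%. The higher-scoring part of the list left 2 peaks at Ppargc1a, 3 at Ppargc1b, 5 at Esrrg and 2 at Ppara, with median folds of 10.9, 9.53, 9.63 and 9.84. With a fold of 8 in place of 10, the number of strong peaks went from 1 to 2 at Ppargc1a, 3 at Ppargc1b, 3 at Esrrg and 2 at Ppara. Joining peaks within 5 kb cut the largest Ppargc1b group to 3 peaks and the largest Esrrg group to 1. It also cut the largest groups at Ppargc1a and Ppara from 3 to 2, which counts as within 1.5 times. All these follow from stricter or looser thresholds. Merging peaks within 1 kb left 8 peaks at Ppargc1b and 3 at Ppara, where the median fold rose from 5.52 to 8.03. With each window widened by 50 kb, the Ppara median fold was 7.92 on 5 peaks, then the highest of the loci. Its median fragments went from 49 to 38. The median fold went from 5.58 to 4.80 at Ppargc1a and from 4.49 to 5.04 at Ppargc1b, and stayed at 6.24 at Esrrg. The values for the Ppargc1b group of 8 alone were added after the data were seen (median fold 4.44, median fragments 34). The number of fragments limits each fold to the intervals given. No paired analysis was possible because the replicates are merged, and none could be left out.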
